A study of Mus musculus with 11 samples.

Results

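Keratin genes were examined in whole adult mouse colon before and after imatinib, a kinase inhibitor whose targets include Abl, Kit and the PDGF receptors. A gene counted as a keratin if the array annotation gave its probe set a single symbol made of Krt, a number and at most 1 further letter. This found 48 genes, 25 of type I and 23 of type II, with 61 probe sets, out of 18193 genes with 1 symbol. Where a keratin had several probe sets, the 1 used was chosen by its mean signal, the highest over all 11 arrays. The genes themselves were chosen by symbol, and no difference between groups entered the choice. The samples were total RNA from colons of adult C57BL/6 mice: 3 taken before imatinib (control), 4 taken 3 h after an imatinib injection and 4 taken 12 h after it. Dose, age in weeks and sex are not given in the labels, and no vehicle-injected or clock-matched colons are among the samples analysed here, so time after injection, time of day and handling cannot be told apart from the drug. Separate mice for the separate samples are not stated in the labels. The p-values are therefore set against the spread between samples, whatever its source, and precision is limited by the small number of arrays.

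Keratins are the intermediate filament proteins of epithelial cells. An acidic type I chain pairs with a basic type II chain, and the filaments built from such pairs are tied to desmosomes and hemidesmosomes. Single-layered epithelia such as the gut lining use the type II chains Krt8 and Krt7 with the type I chains Krt18, Krt19 and Krt20, whereas Krt5 and Krt14 mark the basal layer of stratified epithelia and the hard keratins build hair and nail. In the annotation used, 24 of the 48 genes lie on chromosome 11 and 24 on chromosome 15. Krt18 is the exception to the split by type, a type I gene beside its type II partner Krt8 on chromosome 15. Of 54 keratin symbols in that annotation, 48 had a probe set, and Krt9, Krt39, Krt40, Krt74, Krt87 and Krt90 were not analysed here.

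Of the 48 keratins, Krt36 alone passed the test in any comparison. Krt36 is a type I hard keratin, a class best known from hair. Its signal was higher at 3 h after imatinib than in control colon, and at 12 h its arrays overlapped those of control. No keratin was called at 12 h against control. The test was a linear model over all genes on log2(signal + 16), with calls at a Benjamini-Hochberg adjusted p under 0.05. At 3 h against control it called 1 of 48 keratins, in the higher direction, beside 2.54% of all genes in either direction and 1.43% called higher. In colons taken at 12 h against control it called 0 of 48 keratins, beside 1.62% of all genes, and 3 keratins (Krt17, Krt18 and Krt222) had an unadjusted p under 0.05, 6.25% of them beside 15.8% of all genes. The same count was 4 at 3 h against control (8.33% beside 15%) and 5 at 12 h against 3 h (10.4% beside 17.7%). Between 12 h and 3 h it called 1 of 48 keratins, in the lower direction, beside 4.08% of all genes in either direction and 2.09% called lower. The comparisons share arrays, those of control or those of 3 h.

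The stretch before the RefSeq start that the promoter table gives for Krt36 is shown with those of Krt32, the nearest hard keratin with a sequence in the table used, and Krt20, a gut keratin of the same chromosome. Each is the 250 bases upstream of the RefSeq start on GRCm38.p6, read 5′ to 3′ on the minus strand, at chr11:100105627-100105876 for Krt36, chr11:100088270-100088519 for Krt32 and chr11:99438154-99438403 for Krt20. The Krt32 and Krt20 stretches begin 1 base beyond the annotated gene ends, whereas the Krt36 stretch lies inside the annotated gene span, which runs on to 100109487, so the start used is an internal one. No start farther upstream was examined. Capitals mark matches to a TATA motif.
Krt36: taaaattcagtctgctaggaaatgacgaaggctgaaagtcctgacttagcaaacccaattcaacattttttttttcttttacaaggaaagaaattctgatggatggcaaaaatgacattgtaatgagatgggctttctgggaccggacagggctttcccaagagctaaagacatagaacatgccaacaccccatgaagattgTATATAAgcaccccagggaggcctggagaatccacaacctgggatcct
Krt32: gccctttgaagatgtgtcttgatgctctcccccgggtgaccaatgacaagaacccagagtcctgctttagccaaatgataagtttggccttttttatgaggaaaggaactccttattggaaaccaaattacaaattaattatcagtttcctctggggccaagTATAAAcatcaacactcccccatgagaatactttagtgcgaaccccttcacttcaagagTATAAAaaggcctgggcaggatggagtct
Krt20: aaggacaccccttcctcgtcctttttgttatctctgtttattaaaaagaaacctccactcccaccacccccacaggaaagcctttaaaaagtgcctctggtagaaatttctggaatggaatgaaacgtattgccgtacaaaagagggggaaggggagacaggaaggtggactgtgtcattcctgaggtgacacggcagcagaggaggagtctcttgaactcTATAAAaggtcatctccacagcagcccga
The Krt36 stretch held TATATAA at 48 to 42 bases before the start, a form found in 3.04% of 32851 mouse promoters of this length and in 7 of 33 keratin promoters. Krt32 held TATAAA at 88 to 83 and at 29 to 24 bases before the start, and Krt20 held it at 29 to 24 bases. TATAAA occurred in 12.4% of all promoters and in 16 of the 33 keratin promoters, which belong to 32 of the 48 genes. Searches covered both strands. The glucocorticoid receptor element, GNACA and TGTNC with any 3 bases between them (0.387% of all promoters), and the cAMP response element TGACGTCA (1.55%) matched none of the keratin stretches, and the AP-1 element TGANTCA (6.75%) matched 2, both before Krt13. A match is a match of letters and says nothing of binding.

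The 4 colons taken 3 h after imatinib gave Krt36 signals of 116.5, 105.0, 98.7 and 90.2, and the 3 control colons gave 23.1, 22.5 and 19.2. Every 3 h array was therefore above every control array, with a wide gap between the groups. The mean was 102.6 ± 11.1 at 3 h (SD, n = 4) and 21.6 ± 2.1 in control (SD, n = 3). The deposited signals thus had a ratio of means of 4.75. The control mean lies among the array medians (16.8 to 23.9) and no detection call was made, so how much of it is background is unknown, and the ratio is one of signals and not of RNA. On the log2(signal + 16) scale, which understates changes of low signals, the change was 1.65 ± 0.10 (SE, 95% interval 1.43 to 1.87, limma adjusted p = 8.1e-06). By p-value Krt36 stood 2 of 18193 genes in this comparison. With changes ordered from the most positive to the most negative, that of Krt36 stood 39 of 18193.

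At 12 h the Krt36 signals were 21.3, 21.9, 19.8 and 24.7, with a mean of 21.9 ± 2.05 (SD, n = 4). They overlapped the control arrays, and the change against control was 0.01 ± 0.10 (SE, 95% interval -0.21 to 0.23, limma adjusted p = 0.976). Against 3 h, every 12 h array was lower, with a change of -1.64 ± 0.09 (SE, 95% interval -1.85 to -1.44, limma adjusted p = 5.55e-06). Krt36 is represented by 1 probe set, so no other probe set of the gene checks these values.

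**Figure D1:**
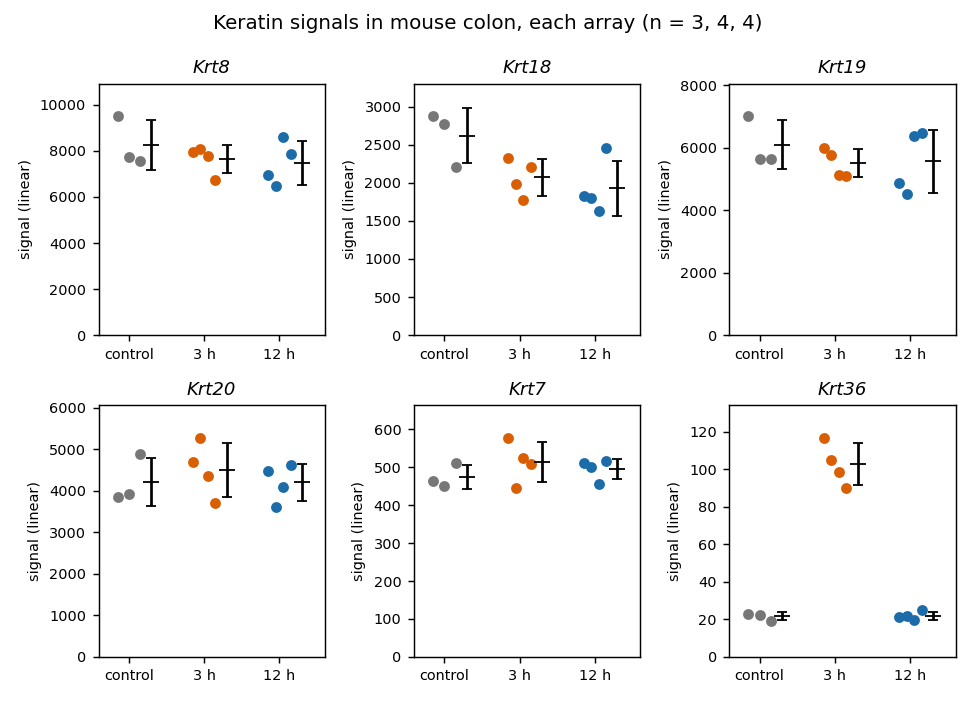
Signal of 6 keratins on every array, on linear axes from 0, by group (control, 3 h and 12 h after imatinib), with 1 point per array and the group mean ± SD beside it. Krt36 lies between 90.2 and 116.5 on the 4 arrays at 3 h and between 19.2 and 24.7 on the other 7, whereas Krt8, Krt18, Krt19, Krt20 and Krt7 overlap between control and 3 h.

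The genes beside Krt36 on chromosome 11 were not called with it. Krt36 spans chr11:100102012-100109487. Krt35, a hard keratin whose lower coordinate lies 9.82 kb below that of Krt36, gave signals of 2.2, 9.5, 11.6 and 4.5 at 3 h and 2.9, 1.9 and 1.0 in control. These arrays overlapped, and the change was 0.34 (limma unadjusted p = 0.037, adjusted p = 0.286). The ratio of mean Krt35 signals at 3 h over control was 3.6. No Krt35 signal reached 16, and the log2(signal + 16) scale understates changes of such low signals. Krt32, 21.2 kb below by the same measure, had a change of 0.17 (limma adjusted p = 0.709). Krt13, a keratin of stratified internal epithelia 15.3 kb above, had a change of -0.20 (limma adjusted p = 0.696).

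Other markers also differed from control at 3 h, the time at which Krt36 was high. The posterior Hox genes, 9 transcription factor genes that mark the hind end of the body axis, had a summed signal of 808 to 1220 at 3 h, against 1719 to 2250 in control, and 1647 to 1939 at 12 h. This list was added after the values were seen. In it, 4 of 9 genes fell at 3 h (Hoxb13, Hoxd13, Hoxa13 and Hoxd10) and none rose, where 1.11% of all genes were called lower, with a median change of -0.56 beside -0.02 over all genes. Hoxb13 averaged a signal of 603 ± 134 at 3 h and 1182 ± 180 in control (SD, n = 4 and 3), a change of -0.97 ± 0.17 (SE, limma adjusted p = 0.0147). At 12 h against 3 h, a comparison on the same 3 h arrays, Hoxb13, Hoxd13, Hoxa13 and Hoxd10 were called higher. The part of this shift in the Krt36 result was not tested.

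Fat markers moved as well. The summed signal of 4 fat genes was 1381 to 2085 at 3 h and 651 to 853 in control, and Fabp4, a lipid-binding protein of fat cells, rose (1.16 ± 0.21 SE, limma adjusted p = 0.0161). At 12 h that sum was 951 to 1991, and Fabp4 was again called higher than control. Its ratio of mean signals to control was 2.30 at 3 h and 2.25 at 12 h. Fabp4 was the 1 fat gene of 4 called at each time, where 1.43% of all genes were called higher at 3 h and 0.781% at 12 h. The Krt36 arrays at 12 h overlapped control. The fat shift's part in the Krt36 result was not tested. Markers of squamous, cornifying epithelium, 16 genes, had a summed signal of 2564 to 3136 at 3 h and 3526 to 4593 in control, and 7 of the 16 (Trp63, Ivl, Flg, Sprr1b, Krtdap, Calm4 and Lypd3) stayed under a signal of 16 on all 11 arrays. None of the 16 was called higher at 3 h, and Serpinb5, a serpin of epithelial cells, fell by 0.51 ± 0.10 (SE, limma adjusted p = 0.0188). Tgm3, an epidermal transglutaminase, made up most of the sum, with a mean signal of 2012 ± 291 at 3 h and 3115 ± 584 in control (SD, n = 4 and 3), and its change of -0.62 was not called (limma adjusted p = 0.226). At 12 h the sum was 1821 to 3222 and Serpinb5 was again called lower than control (-0.44, limma adjusted p = 0.0478). The signal of Sprr1a, a cornified envelope precursor, was 364.8, 331.6, 382.3 and 322.7 at 3 h and 109.5, 196 and 317.2 in control, arrays that did not overlap but whose change of 0.82 ± 0.34 (SE, limma adjusted p = 0.267) was not called. At 12 h the Sprr1a signals were 61.4, 63.6, 54 and 164.7, lower than at 3 h by a called amount (-1.96 ± 0.31 SE, limma adjusted p = 0.00491). The part of the squamous markers in the Krt36 result was not tested. In bulk tissue, fewer cells of a type and less RNA per cell cannot be told apart.

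Pancreatic transcripts were present on some arrays. The summed signal of 9 pancreatic acinar genes was over 10000 on 5 arrays (control replicate 1, 3 h replicate 3, and 12 h replicates 1, 3 and 4) and 191 to 1552 on the other 6. Without those 5 arrays the Krt36 change at 3 h against control was 1.70 ± 0.14 (SE, limma adjusted p = 0.00946). At 12 h against 3 h it was -1.66 ± 0.17 (SE, limma adjusted p = 0.0495), with 1 array left at 12 h. Epithelial markers were high on every array: 10 pan-epithelial genes summed to 30617 to 34761 in control, 28859 to 33281 at 3 h and 28459 to 32870 at 12 h. The pancreatic sum exceeded the pan-epithelial sum on control replicate 1 (84282 beside 34761). It did so too on 12 h replicates 1 (66123 beside 30755) and 3 (50151 beside 32870). Epithelial markers do not exclude tissue of another organ in a sample. In the pan-epithelial list Cdx2, an intestinal transcription factor, was called higher at 3 h. Against control, 1.43% of all genes were called higher and 1.11% lower at 3 h, and 0.781% and 0.835% at 12 h. Among other cell types, 1 of 10 absorptive colonocyte genes (Tmigd1) was called higher at 3 h and at 12 h. Of 7 crypt genes, Hmmr was called lower at both times and Mki67 at 12 h, both genes of dividing cells, with a list median of -0.48 at 3 h and -0.06 at 12 h. The crypt genes Ascl2, Axin2 and Smoc2 had positive changes at 12 h that were not called (0.28, 0.26 and 0.41). Lgr5 and Top2a had negative ones, also not called (-0.06 and -1.03). At 3 h Lgr5, Top2a and Mki67 had uncalled negative changes (-0.48, -0.67 and -0.54). Ascl2, Axin2 and Smoc2 were then at 0.09, 0.15 and -0.002. Of 7 enteroendocrine genes, Insl5 was called lower at 3 h, but the list median was 0.39. In that list Chga, Chgb, Neurod1 and Tph1 had every 3 h array above control with no call (0.70, 0.53, 0.39 and 0.50). Pyy had every 3 h array below control, also with no call (-0.31), and Gcg overlapped control (0.07). Of 6 fibroblast genes, Col3a1, Col1a2, Lum and Col1a1 were called lower at 12 h, and of 6 leukocyte genes, Csf1r. Col1a2, Col3a1 and Col1a1 were also called lower at 12 h than at 3 h, where 2.09% of all genes were. No goblet, tuft, urothelial, mesothelial, pancreatic acinar or male accessory gland gene was called in any comparison. The 7 male accessory gland genes summed to 756 on 3 h replicate 4 and to 202 and 162 on control replicates 2 and 3. On the other arrays they summed to 12.2 to 56.4. Signals that differ so widely within a group are hard to call, so no call does not show absence.

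The colon keratins proper were those of simple epithelia. Signals of different probe sets do not compare as amounts of RNA, but they show which keratins were well above the low end of the arrays, whose median signals were 16.8 to 23.9. A mean signal over 100 was reached by 6 keratins, namely Krt8 (7750), Krt19 (5691), Krt20 (4320), Krt18 (2168), Krt7 (497) and Krt42 (131). The other Krt42 probe set had a mean of 21.0, among the array medians, so the place of Krt42 in this list rests on the probe set used. Another 31 of the 48 keratins (64.6%) had a mean signal under 16, a share of 32.2% among all genes. On every array 10 keratins lay above that array's median (Krt7, Krt8, Krt10, Krt18, Krt19, Krt20, Krt42, Krt80, Krt81 and Krt88), and 25 lay below it.

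**Figure D2:**
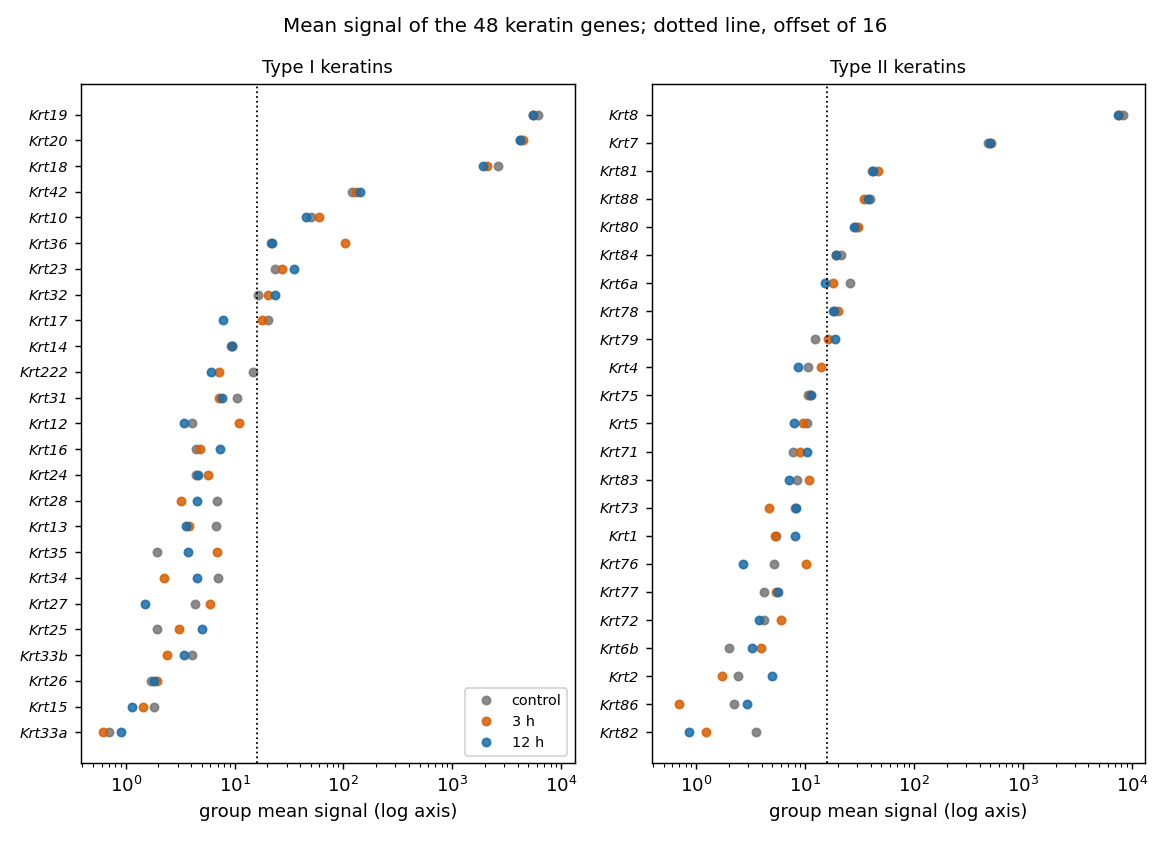
Mean signal of each of the 48 keratins in control, 3 h and 12 h colon (n = 3, 4 and 4), 1 point per group on a log axis, with type I and type II in separate panels and a dotted line at a signal of 16. Krt8, Krt19, Krt20, Krt18, Krt7 and Krt42 stand over 100 in every group, 31 keratins have a mean over all arrays under 16, and the 3 h point of Krt36 stands apart from its other points.

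Krt8, the type II chain of the gut lining, gave signals of 7946.9, 8070.3, 7801.7 and 6740.8 at 3 h and 9498.8, 7721.5 and 7556.4 in control. At 12 h its signals were 6964.2, 6488.6, 8613.6 and 7849.0. All 3 groups overlapped, with changes of -0.11 ± 0.13 at 3 h (SE, 95% interval -0.39 to 0.17, limma adjusted p = 0.783) and -0.14 ± 0.13 at 12 h (SE, 95% interval -0.42 to 0.13, limma adjusted p = 0.662). Both dimmer Krt8 probe sets gave small changes of the same sign, -0.05 and -0.06 at 3 h and -0.17 and -0.09 at 12 h.

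Krt18, the type I partner of Krt8, had the lowest unadjusted p of the gut keratins. Its signals were 2324.8, 1988.6, 1769.0 and 2202.8 at 3 h and 2871.5, 2777.7 and 2202.0 in control. At 12 h they were 1823.3, 1802.6, 1634.4 and 2450.8. Control replicate 3 lay within the range of both treated groups, so the groups overlapped. The change was -0.33 ± 0.15 at 3 h (SE, limma adjusted p = 0.338) and -0.45 ± 0.15 at 12 h (SE, 95% interval -0.78 to -0.11, limma adjusted p = 0.18), and neither passed the threshold. The 12 h value is a ratio of mean signals of 0.737.

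Krt19, a short type I keratin without the usual tail, gave 6001.8, 5785.9, 5138.6 and 5105.0 at 3 h and 7005.7, 5657.7 and 5645.8 in control. Its signals at 12 h were 4881.5, 4520.7, 6383.2 and 6472.0. The groups overlapped, with changes of -0.14 ± 0.15 at 3 h (SE, limma adjusted p = 0.734) and -0.14 ± 0.15 at 12 h (SE, limma adjusted p = 0.718). Krt20, a type I keratin of differentiated cells at the luminal surface, gave 4692.0, 5271.5, 4360.8 and 3697.9 at 3 h and 3858.0, 3925.7 and 4891.2 in control. At 12 h it gave 4480.9, 3610.1, 4104.3 and 4626.8. These groups overlapped too, with changes of 0.09 ± 0.14 at 3 h (SE, 95% interval -0.22 to 0.40, limma adjusted p = 0.85) and -0.00 ± 0.14 at 12 h (SE, 95% interval -0.31 to 0.30, limma adjusted p = 0.995).

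Krt7, a type II keratin of ducts and some simple epithelia, gave signals of 576.7, 445.9, 524.6 and 508.5 at 3 h and 464.9, 450.0 and 511.1 in control. Its signals at 12 h were 510.9, 499.8, 457.0 and 516.4. The groups overlapped, and the changes were 0.11 ± 0.11 at 3 h (SE, limma adjusted p = 0.727) and 0.06 ± 0.11 at 12 h (SE, limma adjusted p = 0.855). The 95% intervals at 3 h lie between -0.39 and 0.40 on the log2 scale for Krt8, Krt7 and Krt20, and reach lower for Krt19 (-0.46 to 0.18) and Krt18 (-0.67 to 0.003). A p that misses the threshold does not show that the groups were alike, and these intervals give what the arrays could still hold. Krt42, a type I keratin near Krt17, had signals of 99.1 to 157.2 in control, 103.3 to 142.7 at 3 h and 107.0 to 198.3 at 12 h, and was not called (limma adjusted p = 0.859 at 3 h and 0.737 at 12 h).

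Of 8 type I and 11 type II keratins of basal and stratified epithelium, 6 and 7 had a mean signal under 16, and none was called. Krt5, the type II chain of basal cells, gave 21.6, 5.1 and 4.7 in control, 15.6, 3.5, 14.5 and 4.7 at 3 h, and 3.5, 14.3, 8.3 and 5.5 at 12 h. Krt14, its type I partner, gave 21.8, 3.5 and 2.4 in control, 14.6, 12.4, 5.1 and 6.1 at 3 h, and 2.3, 11.1, 10.1 and 14.7 at 12 h. The highest value of both genes was on control replicate 1, and the groups overlapped. Krt15, a type I basal keratin, stayed between 0.6 and 2.5 on all 11 arrays. Krt13 and Krt4, a pair of internal stratified epithelia, ranged from 1.0 to 7.5 and from 9.5 to 18.8 at 3 h, and from 1.8 to 9.8 and from 9.4 to 12.3 in control. None of these 5 was called.

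Krt17, a type I keratin of hair follicles and wounded skin, had the most negative change of any keratin at 12 h. Its signals were 9.3, 1.8, 8.5 and 11.9 at 12 h and 20.6, 29.5 and 10.5 in control, and control replicate 3 lay inside the 12 h range. At 3 h they were 7.9, 20.1, 19.4 and 23.5. The change at 12 h was -0.59 ± 0.22 (SE, 95% interval -1.06 to -0.11, limma adjusted p = 0.213) and at 3 h -0.09 (limma adjusted p = 0.909). A dimmer second probe set gave -0.29 at 12 h and -0.48 at 3 h, so the probe sets differed in which time had the larger change. Krt10, the type I keratin of the suprabasal epidermis, gave 55.3, 59.9, 63.8 and 60.6 at 3 h and 53.3, 48.8 and 48.8 in control. All 3 h arrays lay above the control arrays, but the change was small and not called (0.19 ± 0.10 SE, limma adjusted p = 0.426).

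Some other keratins had arrays that did not overlap between groups. At 3 h against control there were 3 such keratins of 48 (Krt36, Krt10 and Krt222), beside 15.3% of all genes. There was 1 at 12 h against control (Krt222), beside 13% of all genes, and at 12 h against 3 h there were 4 (Krt36, Krt12, Krt33b and Krt86), beside 11.5% of all genes. These shares of the keratins were below those of all genes. Krt222, a keratin-like type I gene, gave 13, 15.6 and 15.6 in control, 10.6, 2.5, 11.6 and 3.9 at 3 h, and 2.8, 6.7, 3.3 and 11.5 at 12 h. Both treated groups lay below control at signals under 16, and neither change was called (-0.43 ± 0.17 SE at 3 h, limma adjusted p = 0.238, and -0.49 ± 0.17 SE at 12 h, limma adjusted p = 0.174).

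Krt12, the type I keratin of the corneal epithelium, was the next keratin after Krt36 by p-value at 3 h. Its signals were 13.5, 11.1, 6.0 and 13 at 3 h and 0.7, 5.2 and 6.4 in control, and 3 h replicate 3 lay within the control range. At 12 h they were 3.5, 0.7, 5.5 and 4.0, all below the 3 h arrays. The change was 0.42 ± 0.14 at 3 h against control (SE, limma adjusted p = 0.16) and -0.47 ± 0.13 at 12 h against 3 h (SE, limma adjusted p = 0.0728). Without 3 h replicate 3, the lowest of the 3 h arrays, the change at 12 h against 3 h passed the threshold (-0.56, limma adjusted p = 0.0462). It stayed short of the threshold in 19 of 21 alternative fits, with a limma adjusted p of up to 0.191. Every one of the Krt12 signals given here was under 16. A second Krt12 probe set had a mean signal of 5.06, beside 6.33 for the 1 used. It gave 0.38 at 3 h against control and -0.21 at 12 h against 3 h, and neither was called.

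Krt23, a type I keratin without a settled place among the role groups, gave 32.2, 49.2, 39.2 and 21.4 at 12 h and 32.7, 17.6 and 20.9 in control. At 3 h it gave 32.6, 15.2, 32.1 and 28.1. The arrays overlapped, and its changes were 0.36 at 12 h (limma adjusted p = 0.45) and 0.11 at 3 h (limma adjusted p = 0.882). The epidermal and hair keratins that remain were low. Of 11 type I hair keratins, 9 had a mean signal under 16, the exceptions being Krt36 and Krt32. Krt32 gave 16.3 to 23.6 at 3 h and 12.4 to 20.9 in control. Of 9 type II hair keratins, 7 had a mean signal under 16. Krt81, a type II hard keratin, gave 34.0 to 48.7 in control, 38.3 to 59.6 at 3 h and 30.2 to 50.0 at 12 h, overlapping throughout. Krt33b and Krt86, a type I and a type II hard keratin, had no signal over 5.1 on any array, and their non-overlap at 12 h against 3 h was not called (limma adjusted p = 0.714 and 0.39).

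Over the 47 keratins other than Krt36, changes at 3 h against control ran from -0.43 (Krt222) to 0.42 (Krt12), with 25 positive and 22 negative. Their range at 12 h against control was from -0.59 (Krt17) to 0.36 (Krt23), with 22 positive and 25 negative. The 12 h against 3 h changes ran from -0.49 (Krt17) to 0.25 (Krt23), with 19 positive and 28 negative. The median change of all 48 keratins was 0.04, -0.02 and -0.02 in these 3 comparisons, beside -0.02, -0.01 and 0.01 over all genes. Krt36 stood far outside the range of the other keratins at 3 h.

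**Figure D3:**
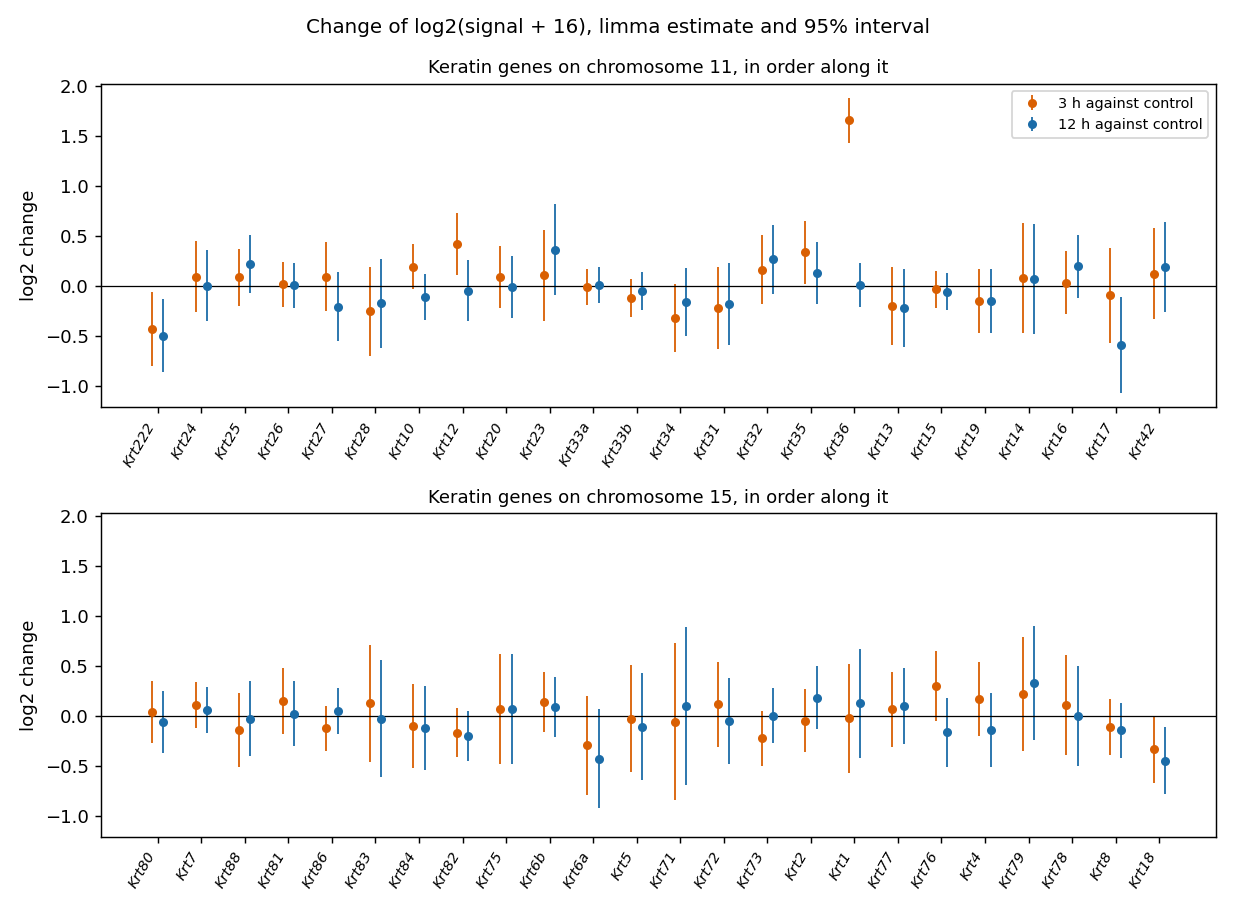
Log2 change of each of the 48 keratins against control (log2 of signal + 16) at 3 h and at 12 h, in gene order along chromosomes 11 and 15, with the 95% interval as a bar. Krt36 stands at 1.65 at 3 h and at 0.01 at 12 h, while the other 47 keratins lie between -0.43 and 0.42 at 3 h and between -0.59 and 0.36 at 12 h.

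Because type I and type II chains pair, 4 known pairs were compared across the 11 arrays. Krt8 and Krt19 had Pearson's r = 0.905 (permutation p = 0.00022, adjusted over the 4 pairs 0.00088) and Spearman's rho = 0.9 (permutation p = 0.00038, adjusted 0.00152). Without the 2 arrays farthest from the median Krt8 signal, r was 0.785, and after removal of group means it was 0.896. Krt8 and Krt18 gave r = 0.358 (permutation p = 0.28, adjusted 0.373) and rho = 0.2 (permutation p = 0.557, adjusted 0.557), with r = -0.187 without the 2 farthest arrays. Krt8 and Krt20 gave r = 0.22 (permutation p = 0.516, adjusted 0.516) and rho = 0.327 (permutation p = 0.325, adjusted 0.433), with r = 0.343 without the 2 farthest arrays. Krt5 and Krt14 gave r = 0.597 (permutation p = 0.0549, adjusted 0.11) and rho = 0.566 (permutation p = 0.0747, adjusted 0.149), with r = 0.194 without the 2 farthest arrays, so that value rests on them. In the 6 arrays low in pancreatic transcripts, r was 0.471 for Krt8 and Krt18, 0.954 for Krt8 and Krt19, 0.83 for Krt8 and Krt20, and 0.609 for Krt5 and Krt14. The 5 other arrays are too few for a value. Each array carries 1 scaling factor, which all genes of an array share. Krt8 and Krt19 were both highest on control replicate 1 and lowest on 12 h replicate 2. So was the summed signal of 8 goblet genes, at 52448 and 32162. No pairs of other genes were compared, so these values do not show a relation particular to filament partners.

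Genes of proteins that anchor keratin filaments were read against the 2.54%, 1.62% and 4.08% of all genes called, shares at which lists this short hold about 1 called gene or none. Desmosome genes, which join filaments of neighbouring cells, had 0 of 13 measured members called in each comparison, with a median change of 0.12 at 3 h and 0.02 at 12 h against control. Cytolinkers and keratin-binding proteins had 0 of 8 called, with medians of -0.01 and -0.19. Of 6 hemidesmosome genes, which hold filaments to the basement membrane, 1 was called. Lama3, a laminin chain of that membrane, gave 229.1, 263.3 and 167.5 in control, 206.3, 242.4, 220 and 222.8 at 3 h, and 90.9, 97.9, 108.3 and 92.2 at 12 h. Every 12 h array lay below every other array, a change of -1.04 ± 0.13 against control (SE, limma adjusted p = 0.00375) and -1.08 ± 0.12 against 3 h (SE, limma adjusted p = 0.000559).

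Among 15 other intermediate filament genes, Lmnb2 and Des passed a test. Lmnb2, a nuclear lamin, gave 49.1, 47.2, 48.6 and 56.5 at 3 h and 89.2, 78.5 and 74.6 in control, a change of -0.54 ± 0.09 (SE, limma adjusted p = 0.011). At 12 h it gave 75.6, 75, 77.8 and 72.2, and was higher than at 3 h (0.46 ± 0.09 SE, limma adjusted p = 0.0118). Lmnb2 was thus low at the time Krt36 was high. Des, the muscle filament protein desmin, was called lower at 12 h than at 3 h (-0.88 ± 0.19 SE, limma adjusted p = 0.0218) but not against control (-0.77, limma adjusted p = 0.081). Des is itself in the list of 6 smooth muscle genes. Of those 6, Des and Actg2 were the 2 called lower at 12 h than at 3 h, beside 2.09% of all genes.

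**Figure D4:**
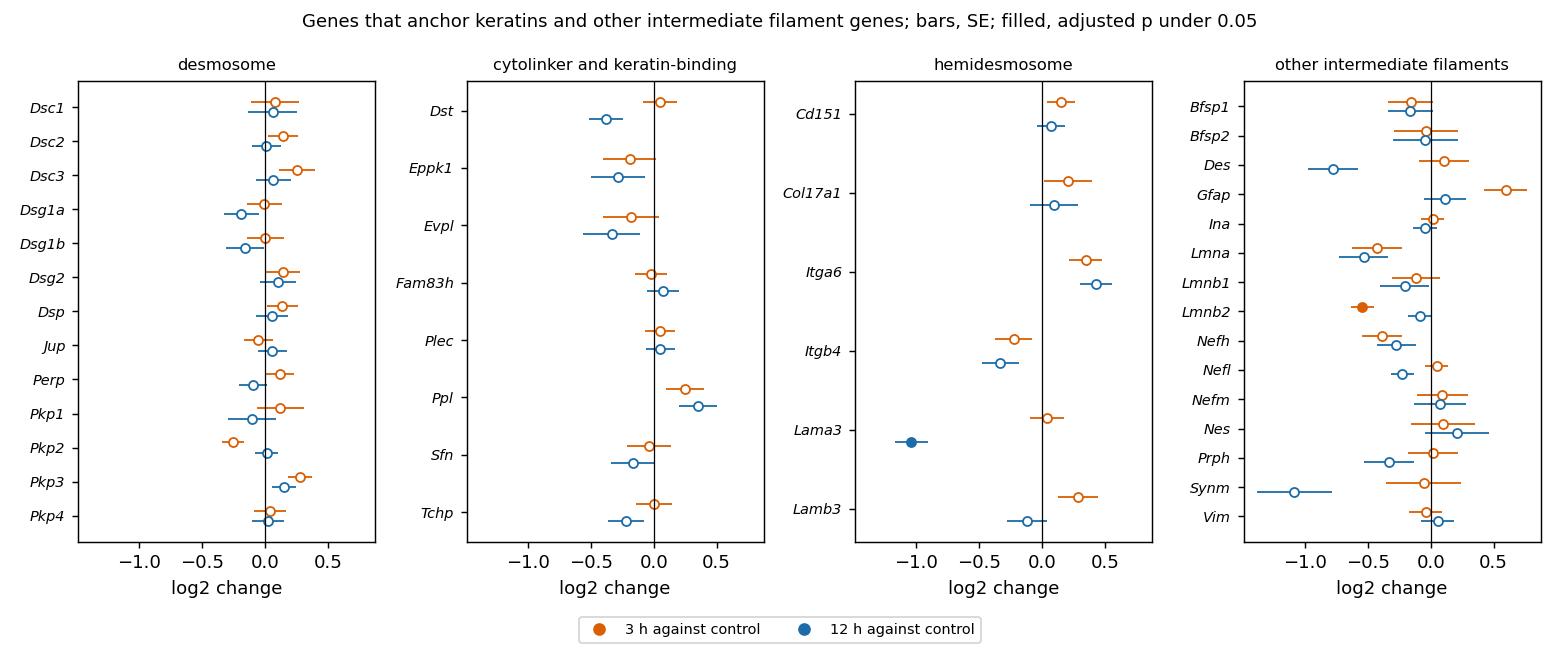
Log2 change against control (log2 of signal + 16) at 3 h and at 12 h of the genes of 4 lists, desmosome, cytolinker and keratin-binding, hemidesmosome and other intermediate filaments, with the SE as a bar and filled points where the adjusted p was under 0.05. Filled points are those of Lama3 at 12 h (-1.04) and Lmnb2 at 3 h (-0.54).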

How the data were processed

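Total RNA of 11 colon samples was labelled with biotin and hybridised to Affymetrix mouse expression arrays, per the labels' protocols. The deposited values are linear intensities, 1 per probe set and array. The software that made them is not given in the sources used here, and the values show that the authors' files were scaled to 1 trimmed mean (2% at each end) of 100 on every array. Of 45101 probe sets, 34945 had 1 symbol in the platform annotation and 932 had several. Those 932 were left out, 1 of them shared by Krt17 and Krt14. The probe set with the highest mean stood for its gene. log2(signal + 16) of 18193 genes was fitted with limma 3.58.1 in R 4.3.3 (lmFit, eBayes) on all 11 arrays with no covariate and no filter on level. The tests were 2-sided and adjusted by Benjamini-Hochberg over all genes, with calls under 0.05. The script was tested on simulated data. Pairs of keratins were compared by permutation (100000 resamples). Motifs were searched in RefSeq promoters of GRCm38.p6 with Python 3.11.15. Figures were drawn with matplotlib 3.10.9.

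Named keratins were those called in any comparison, the gut keratins with Krt23, Krt5, Krt14, Krt15, Krt17, Krt13 and Krt4 whatever their result, and up to 5 per comparison whose arrays did not overlap. Krt32, Krt35, Krt42 and Krt81 were named after their values were seen. Members of the gene lists were named where called. The members and the 20 lists were chosen with earlier results of these data known. The alternatives were other scalings, offsets, a level filter, all probe sets of a gene, array weights, a trended prior, fits on 2 groups, a replicate block and each array left out.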

Additional observations from a re-analysis of the deposited data

Results flagged for a closer look

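In Krt36 the response differed between the times after injection. The change at 12 h minus the change at 3 h was -1.642 on the log2 scale, tested as the difference of 12 h against 3 h in the same model (limma adjusted p = 5.55e-06), and lower on 4 of 4 arrays.

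In Krt10, 12 h replicate 3 had a signal of 56.5, far from the other 12 h arrays, of which the next was 43.6. In Krt33b, 3 h replicate 2 had a signal of 1.9, below the next of 2.5, both at the low end of the arrays. These 2 came from 36 groups of 4 arrays examined, and chance sets apart about 1 in 20 such groups.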

How the results depend on the processing

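Krt36 kept its direction and its call at 3 h against control and at 12 h against 3 h under all 22 alternatives, with a change of 0.96 to 2.19 (limma adjusted p up to 0.00946) at 3 h and of -2.17 to -0.95 (up to 0.0495) at 12 h against 3 h. No alternative called a keratin at 12 h against control. Over the 18 named keratins, 1155 values kept their side of the threshold and 3 passed it. With array weights 2 keratins were called at 12 h against 3 h in place of 1, where Krt12 was added (-0.52, limma adjusted p = 0.0417), and 1 to 2 with an array left out. Krt12 was added without 3 h replicate 3 (-0.56, limma adjusted p = 0.0462) and Krt10 without 12 h replicate 3 (-0.38, limma adjusted p = 0.0422). Over all alternatives the adjusted p ranged from 0.0417 to 0.191 for Krt12 and from 0.0422 to 0.394 for Krt10. The Krt18 change at 12 h ran from -0.57 to -0.37 (limma adjusted p from 0.0594 to 0.548).

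Counts over all genes moved more than the keratins did. They were 463 at 3 h against control, 294 at 12 h against control and 742 at 12 h against 3 h. An offset of 1 gave 228, 80 and 437, and the replicate block gave 278, 182 and 467. The same-number correlations of -0.208 to 0.309 do not show that the numbers pair the samples. With the block, Krt36 changed by 1.66 (limma adjusted p = 0.00026) at 3 h. At 12 h against control, an offset of 64 gave 492, the level filter 483 and a fit on the 2 groups 60. Leaving out an array gave 161 to 520, 63 to 449 and 391 to 755, with the lowest count without control replicate 2 in both comparisons with control and without 3 h replicate 1 at 12 h against 3 h. Without the 5 arrays high in pancreatic transcripts, an alternative chosen after seeing the data, the counts were 80, 8 and 16 with fewer samples. Otherwise the cause was not tested. With equal array medians the higher calls at 12 h against control were 58.8%, beside 48.3% as deposited.

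Signals under about 16 limit what most keratins can show, since 31 of 48 had a mean below it. No detection call was used here, so a low signal does not show that a keratin was absent.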
